A study of Mus musculus with 2 samples.

Results

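The genes described here are 31 genes of sterol and fatty acid synthesis that are driven by the SREBP transcription factors, out of 27998 genes counted in both libraries. They were chosen by symbol, not by their values. They comprise 16 enzymes of the sterol pathway, 6 regulators and sterol carriers, and 9 genes of fatty acid synthesis, and all 31 symbols were found in both gene tables. A list of 19 uptake and efflux genes was set beside them.

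The study removed Trmt6, the partner subunit of the TRMT6-TRMT61A enzyme that methylates tRNA at an adenosine of the T loop, from blood-forming cells, and asked how stem and progenitor cells change. Lin- Sca-1+ c-Kit+ (LSK) bone marrow cells, the sorted fraction that holds haematopoietic stem cells (HSCs) and multipotent progenitors, were profiled by 10x single-cell RNA-seq of transcript 3′ ends. There was 1 library from mice labelled Trmt6fl/fl, called WT here, and 1 library from mice labelled Trmt6fl/fl, MX1-cre, called cKO here, both at 3 months of age. Mx1-Cre is driven by a promoter that responds to interferon, and the study's text has Cre induced with pIpC, an interferon inducer. The sources name the control mice in 3 ways. They are Trmt6fl/fl on the label, Trmt6+/+ Mx1-Cre given pIpC in the description of the single-cell experiment, and the methods' matings gave Trmt6fl/+ Mx1-Cre beside Trmt6fl/fl Mx1-Cre. Whether the WT cells carried Cre or a floxed allele is thus not settled by the sources used here. The numbers of animals pooled per library were not given in the sources used here.

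With 1 library per genotype there was no replicate and no test. Each level is a sum of unique molecular identifiers (UMIs, 1 per captured transcript) over all kept cells, given as CPM (UMIs divided by the library total and scaled to one common total), and each ratio is the log2 of the cKO level over the WT level. The 95% intervals in brackets are exact Poisson or binomial ones that cover counting error only, not differences between mice. A gene was counted as lower or higher where the levels differed by 1.5-fold or more and at least 1 library reached 5 CPM.

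Cells make cholesterol from acetyl-CoA through mevalonate, farnesyl diphosphate, squalene and lanosterol, and make fatty acids from acetyl-CoA through malonyl-CoA. SREBP-2, encoded by Srebf2, mainly drives the sterol genes, and SREBP-1, encoded by Srebf1, mainly the fatty acid genes. When membranes lack sterol, SCAP carries the SREBP precursors from the endoplasmic reticulum to the Golgi, where they are cut into active factors, and INSIG proteins hold them back when sterol is plentiful. mTORC1 is a known activator of SREBP processing, and dividing progenitors need sterol and fatty acids for new membrane.

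The libraries differed in ways that bear on every value below. Filters and a doublet score left 8147 WT and 8480 cKO cells, with 42020577 and 87347276 UMIs and medians of 4161 and 10058.5 UMIs per cell. In all, 24 barcode sequences occurred in both libraries. The 8 markers of granulocyte-monocyte progenitors (GMPs) were all lower in cKO, with summed levels of 6512 CPM in WT and 745 CPM in cKO, and none was at 0. The 8 neutrophil markers were all lower too, at 5492 and 8.04 CPM, and 1 of them was at 0 in cKO. Cells called in S or G2/M made up 54.8% of WT and 67.9% of cKO cells. The part of cell types and cycle in the ratios was not tested, but the ratios are also given within gated cell types and within cycle calls. Trmt6 itself stood at 63.6 CPM in WT against 50.2 CPM in cKO, with a log2 ratio of -0.34, and whether the counted 3′ end lies in the deleted part was not given in the sources used here. Of the genes that define the sort, Kit stood at 63.3 CPM in WT against 21.8 CPM in cKO and Ly6a, which encodes Sca-1, at 34.2 against 142 CPM.

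Promoters are shown first, because SREBPs act there together with the factors NF-Y and Sp1. RefSeq promoter windows of the GRCm38.p6 build, the build family of the deposited counts, run from 250 bases before to 50 bases after a start site. They were given for 24 of the 31 genes, in 29 windows. The windows below were chosen by the genes' values, to show the letters of the lowest 2 ratios and the highest 1 among those of the 24 genes that reached 5 CPM. They belong to Insig1 and Hmgcs1, which were lower in cKO, and to Sc5d, which was higher. Capitals mark the CCAAT letters bound by NF-Y, which read ATTGG on the other strand, and the sterol regulatory element letters CACNCCAC, alone or within the longer TCACNCCAC. The windows are chr5:28071162-28071461 on the plus strand, chr13:119690101-119690400 on the plus strand and chr9:42264251-42264550 on the minus strand, each written 5′ to 3′ along the gene.
Insig1: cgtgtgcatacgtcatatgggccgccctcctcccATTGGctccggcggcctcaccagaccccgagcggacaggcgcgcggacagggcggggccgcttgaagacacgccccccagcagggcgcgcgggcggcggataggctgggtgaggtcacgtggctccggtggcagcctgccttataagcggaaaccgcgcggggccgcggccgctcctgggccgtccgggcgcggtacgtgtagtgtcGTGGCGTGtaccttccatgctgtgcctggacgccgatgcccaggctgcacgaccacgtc
Hmgcs1: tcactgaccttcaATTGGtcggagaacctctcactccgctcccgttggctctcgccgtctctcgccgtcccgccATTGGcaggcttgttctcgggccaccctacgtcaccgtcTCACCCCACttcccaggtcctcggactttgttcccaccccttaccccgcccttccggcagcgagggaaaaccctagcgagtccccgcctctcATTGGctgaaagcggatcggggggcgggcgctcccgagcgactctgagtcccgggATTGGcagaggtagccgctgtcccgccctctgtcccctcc
Sc5d: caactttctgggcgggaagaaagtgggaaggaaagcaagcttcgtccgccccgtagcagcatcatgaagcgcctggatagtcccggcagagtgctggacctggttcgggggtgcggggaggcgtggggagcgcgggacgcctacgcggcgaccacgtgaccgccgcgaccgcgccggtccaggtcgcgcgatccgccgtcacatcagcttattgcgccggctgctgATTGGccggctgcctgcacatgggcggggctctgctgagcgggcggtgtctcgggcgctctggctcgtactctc

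Positions are counted in bases from the RefSeq start site, which is 0, to the leftmost base of a match. The Hmgcs1 window held TCACNCCAC at -137 on the gene's strand, beside CCAAT letters on the other strand at -237, -176, -45 and 10. The Insig1 window held CACNCCAC on the other strand at -9 and CCAAT letters on the other strand at -216. The Sc5d window held CCAAT letters on the other strand at -24 and neither form of the sterol regulatory letters.

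CCAAT letters on either strand were present in 12 of 13 sterol enzyme genes with a window (92.3%), 4 of 5 regulators and 3 of 6 fatty acid genes. The share was 41.1% over the windows of 27025 genes and 43.4% over genes that reached 5 CPM here. GGGCGG letters, which Sp1 binds, were present in 13 of 13 sterol enzyme genes, 5 of 5 regulators and 2 of 6 fatty acid genes, against 38.2% of all genes and 70.5% of those at 5 CPM. TCACNCCAC was in 1 of 24 of the listed genes with a window against 1.44% of all genes, and CACNCCAC, which overlaps it, was in 3 of 24 against 7.12%. TCACGTGA was searched as well and was in 0 of 24 against 1.12% of all genes. The sterol enzyme promoters thus shared CCAAT and GGGCGG letters whether or not the gene differed between the libraries. These are letter matches in short windows and no evidence of binding.

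Across all kept cells, most of the 31 genes were at slightly lower levels in the cKO library, and a few were much lower. Insig1, Fdps, Hmgcs1 and Scd2 were lower by 1.5-fold or more, and none of the listed genes was higher by that much. Of the 31 genes, 27 reached 5 CPM in a library, and 4 of these 27 (14.8%) were lower by 1.5-fold, against 13.8% of all 9139 genes at that level. For higher genes the counts were 0 of 27 against 6.74% of all genes. The share of lower genes was thus close to that of all genes, so the count alone sets the pathway apart in no way. In small differences, 22 of 27 genes (81.5%) had a ratio below 0, against 56.8% of all genes, and their median ratio was -0.23 against -0.07 for all genes. An interval that left out 0 was found for 17 of 27 genes on the lower side (63.0%), against 45.7% of all genes, and for 5 of 27 on the higher side (18.5%), against 33.2%. With median-of-ratios size factors in place of total UMIs the lower share was 48.1% against 35.8%. With cells thinned to 2000 UMIs it was 42.9% against 38.4%. In such sums over cells, fewer cells of a type and less RNA per cell cannot be told apart.

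**Figure D1:**
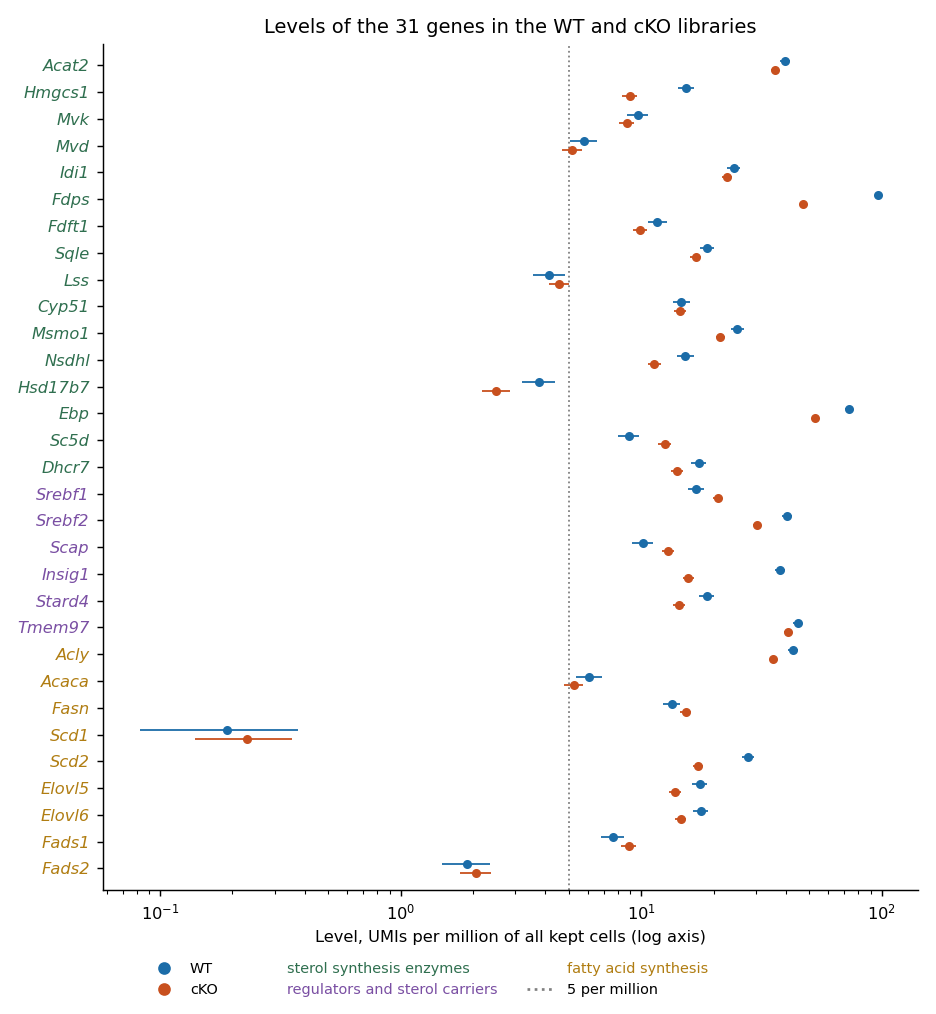
Level of each of the 31 genes, in CPM on a log axis, in the WT library (blue) and the cKO library (orange), with 95% Poisson intervals as bars, gene names coloured by list, and the count minimum of 5 CPM as a dotted line. Levels are to be compared within a gene only, since they are not corrected for length, and the widest gaps are those of Fdps (96.6 and 47.0 CPM) and Insig1 (37.7 and 15.7 CPM).

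The sterol pathway starts with acetyl-CoA joined by Acat2 and with Hmgcs1, which makes HMG-CoA. Acat2 stood at 39.6 CPM in WT against 35.9 CPM in cKO, with a log2 ratio of -0.15 (-0.23 to -0.06). Its near copy Acat3 held 4 UMIs in WT and 7 in cKO, and reads that match both genes may be missing from either count, so the Acat2 value is uncertain. Hmgcs1 (chr13:119690379-119708260, plus strand) stood at 15.3 CPM in WT (interval 14.2 to 16.6) against 8.95 CPM in cKO (interval 8.34 to 9.60). The intervals did not overlap, and the log2 ratio was -0.78 (-0.93 to -0.62). The next enzymes, the kinase Mvk and the decarboxylase Mvd of the mevalonate steps, had intervals that covered 0. Mvk had a log2 ratio of -0.15 (-0.33 to 0.03) and Mvd one of -0.16 (-0.39 to 0.07).

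Idi1 isomerises isopentenyl diphosphate and Fdps joins the isoprene units into farnesyl diphosphate, the branch point to squalene, to protein prenylation and to ubiquinone. Idi1 stood at 24.2 CPM in WT against 22.7 CPM in cKO, with a log2 ratio of -0.09 (-0.20 to 0.02). Fdps (chr3:89093588-89101959, minus strand) stood at 96.6 CPM in WT (interval 93.7 to 99.6) against 47.0 CPM in cKO (interval 45.5 to 48.4), from 4060 and 4103 UMIs. Fdps in WT was thus 2.06 times its cKO level, and the log2 ratio was -1.04 (-1.10 to -0.98); the interval of its neighbour Idi1 covered 0. Fdft1, which joins farnesyl units into squalene, had a log2 ratio of -0.24 (-0.40 to -0.07) at 11.7 and 9.93 CPM in WT and cKO.

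Squalene is oxidised by Sqle and closed into the first sterol by Lss. Sqle stood at 18.8 CPM in WT against 16.8 CPM in cKO, with a log2 ratio of -0.16 (-0.29 to -0.03). Lss stayed below 5 CPM in both libraries, at 4.14 CPM in WT against 4.56 CPM in cKO. The demethylation steps on lanosterol use Cyp51, Msmo1, Nsdhl and Hsd17b7. Cyp51 stood at 14.7 CPM in WT against 14.5 CPM in cKO, and its ratio of -0.02 (-0.16 to 0.12) covered 0. Msmo1, a methylsterol oxidase, and Nsdhl, a sterol dehydrogenase, were lower in cKO with ratios of -0.23 (-0.34 to -0.12) and -0.43 (-0.57 to -0.28). Hsd17b7, a ketosteroid reductase, was below the minimum at 3.76 CPM in WT against 2.496 CPM in cKO, with a ratio of -0.59 (-0.89 to -0.29).

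The last steps use the isomerase Ebp, the desaturase Sc5d and the reductase Dhcr7, and they did not move as one. Ebp stood at 73.1 CPM in WT (interval 70.5 to 75.7) against 52.7 CPM in cKO (interval 51.2 to 54.2), with a log2 ratio of -0.47 (-0.54 to -0.41). Dhcr7 was lower as well, at 17.4 and 14.1 CPM in WT and cKO, with a ratio of -0.30 (-0.43 to -0.17). Sc5d (chr9:42251595-42264256, minus strand) went the other way, with 8.88 CPM in WT (interval 7.999 to 9.82) against 12.5 CPM in cKO (interval 11.8 to 13.3). Its log2 ratio was 0.50 (0.33 to 0.67), just under the 1.5-fold line, and it was the only 1 of the 14 sterol enzymes at 5 CPM with a ratio above 0.

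Of the 14 sterol enzymes at 5 CPM, 2 (14.3%) were lower by the fold, a share like the 13.8% of all genes. Counting by intervals, 9 (64.3%) were lower with 0 left out, against 45.7% of all genes, and the median ratio was -0.20 against -0.07. The share by intervals depended on processing. With median-of-ratios size factors in place of total UMIs it was 6 of 14 (42.9%) against 35.8% of all genes. With cells thinned to 2000 UMIs it was 6 of 15 (40.0%) against 38.4%. The summed level of all 16 enzymes was 384 CPM in WT against 289 CPM in cKO, with a log2 ratio of -0.41 (-0.44 to -0.38). Fdps supplied much of that gap. Without Fdps the summed level of the other 15 was 287 CPM in WT against 242 CPM in cKO, with a log2 ratio of -0.25 (-0.28 to -0.22).

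**Figure D2:**
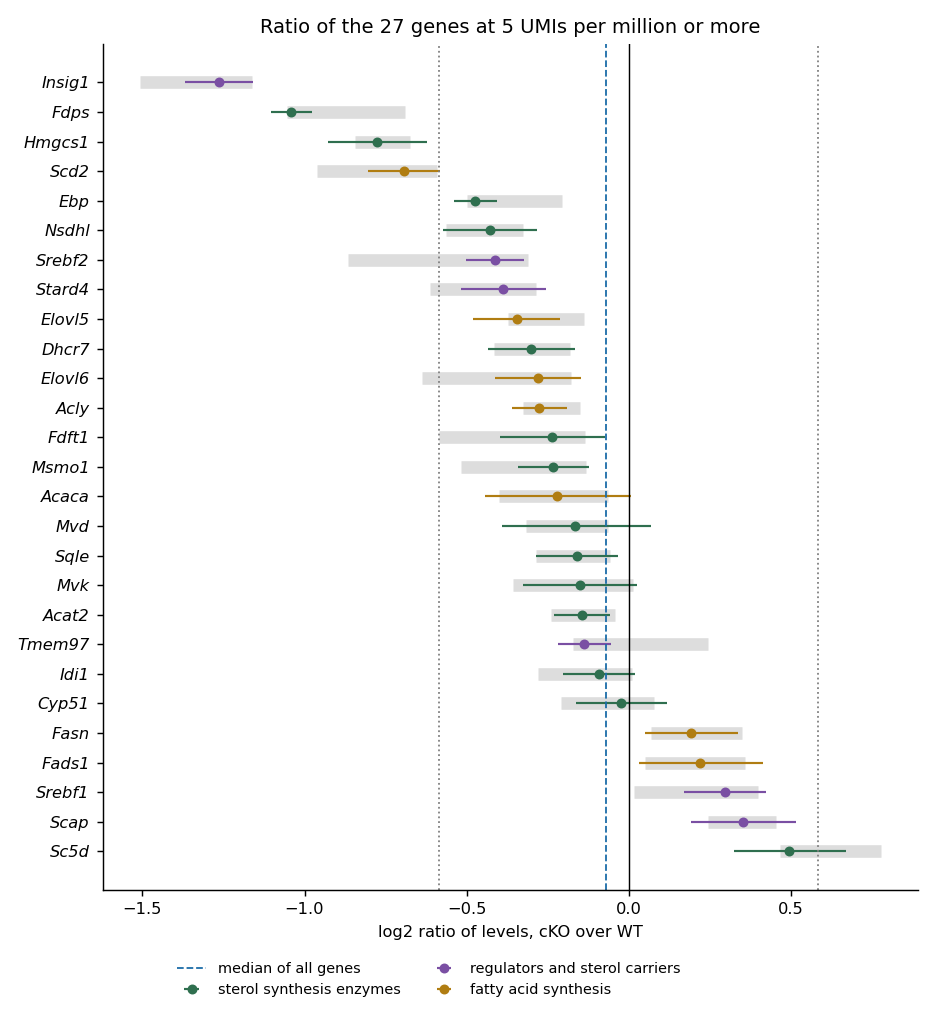
Log2 ratio of cKO over WT for the 27 genes at 5 CPM or more, with 95% counting intervals as thin bars and the range over 12 other ways of processing as thick grey bars, coloured by list. The dashed line is the median of all genes (-0.07) and the dotted lines mark 1.5-fold. Insig1, Fdps, Hmgcs1 and Scd2 lie beyond the left dotted line, and Sc5d lies near the right one.

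Among the regulators, Insig1, itself a target of SREBP, showed the largest difference of all 31 genes. Insig1 (chr5:28071363-28078662, plus strand) stood at 37.7 CPM in WT (interval 35.8 to 39.6) against 15.7 CPM in cKO (interval 14.9 to 16.5), from 1583 and 1370 UMIs. The log2 ratio was -1.26 (-1.37 to -1.16), a WT level 2.40 times the cKO level. Srebf2 was lower in cKO at 40.5 and 30.4 CPM in WT and cKO, with a ratio of -0.41 (-0.50 to -0.32). Srebf1 and Scap went the other way, with ratios of 0.30 (0.17 to 0.42) and 0.35 (0.19 to 0.52). Srebf1 stood at 16.9 and 20.8 CPM and Scap at 10.1 and 12.9 CPM in WT and cKO. Both forms of SREBP-1 share the counted 3′ end, so they could not be told apart.

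Stard4 carries sterol between membranes, and Tmem97, a sterol-regulated membrane protein, binds the lysosomal transporter NPC1. Stard4 stood at 18.7 and 14.3 CPM in WT and cKO, a ratio of -0.39 (-0.52 to -0.26). Tmem97 stood at 44.7 and 40.6 CPM, a ratio of -0.14 (-0.22 to -0.06), and this sign turned in most gated groups and in cells outside S and G2/M, as given below. Over the 6 genes, 4 had ratios below 0 and 2 above, the median was -0.26, and the summed level was 169 CPM in WT against 135 CPM in cKO.

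The fatty acid genes were split. Acly, which makes cytosolic acetyl-CoA from citrate, was lower at 42.9 and 35.4 CPM in WT and cKO, a ratio of -0.28 (-0.36 to -0.19). Acaca, which makes malonyl-CoA, stood at 6.09 and 5.23 CPM with a ratio of -0.22 (-0.44 to 0.01) that covered 0. Fasn, the fatty acid synthase itself, was higher at 13.4 and 15.3 CPM, a ratio of 0.19 (0.05 to 0.34). The core enzymes thus had ratios of both signs, and the 2 with an interval that left out 0 pointed in opposite directions.

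Of the desaturases, which put double bonds into fatty acids, Scd2 (chr19:44293674-44306864, plus strand) was lower, with 27.9 CPM in WT (interval 26.3 to 29.5) against 17.3 CPM in cKO (interval 16.4 to 18.1). Its log2 ratio was -0.69 (-0.80 to -0.58). Scd1, the related enzyme of liver and fat, gave 8 and 20 UMIs, too few for a comparison. Fads1, which desaturates polyunsaturated chains, was higher at 7.62 and 8.88 CPM, a ratio of 0.22 (0.03 to 0.41), and its partner Fads2 stayed below the minimum at 1.88 and 2.06 CPM. The elongases Elovl5 and Elovl6 were both lower, with ratios of -0.35 (-0.48 to -0.21) and -0.28 (-0.41 to -0.15). Of 7 fatty acid genes at 5 CPM, 5 had ratios below 0, the median was -0.28, and the summed level of the 9 was 135 CPM in WT against 113 CPM in cKO, with a log2 ratio of -0.26 (-0.31 to -0.21).

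The uptake and efflux genes had a lower median ratio than the synthesis genes. Of 19 genes, 14 reached 5 CPM, 4 of these (28.6%, against 13.8% of all genes) were lower by 1.5-fold, none was higher, and the median ratio was -0.35. Mylip, a ubiquitin ligase that acts on lipoprotein receptors, was lower at 11.2 and 5.45 CPM in WT and cKO, a ratio of -1.04 (-1.23 to -0.85). Apoe, an apolipoprotein that carries sterol out of cells, stood at 306 and 112 CPM, a ratio of -1.46 (-1.49 to -1.42). Npc2, which binds cholesterol in lysosomes, stood at 315 and 191 CPM, a ratio of -0.72 (-0.75 to -0.68). Vldlr and Lrp8, lipoprotein receptors, had ratios of 0.36 (0.22 to 0.50) and 0.33 (0.12 to 0.56), but that of Vldlr was below 0 under 5 of 12 other settings. Npc2 was lower by the fold under 9 of 12.

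The sterol genes outside the list pointed mostly the same way. Of 9 such genes, 8 reached 5 CPM, 6 (75.0%, against 56.8% of all genes) had ratios below 0 and the median was -0.38. By the fold, 1 of the 8 (12.5%, against 13.8% of all genes) was lower and 0 were higher. With an interval that left out 0, 6 were lower (75.0%, against 45.7%) and 2 higher (25.0%, against 33.2%). The fatty acid genes outside the list were centred close to 0. Of 15, 13 reached 5 CPM, 2 (15.4%, against 13.8% of all genes) were lower by the fold and the median was -0.03. Those 2 were the phosphatase Lpin1 at -1.13 and the acyl-CoA synthetase Acsl1 at -0.88, and the latter came to -0.29 in cells outside S and G2/M.

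Changes of processing left the 4 genes past the fold in place. Over 12 other scalings or choices of cells, the ratio of Insig1 ran from -1.51 to -1.16, that of Fdps from -1.05 to -0.69, that of Hmgcs1 from -0.84 to -0.67 and that of Scd2 from -0.96 to -0.59, each beyond 1.5-fold in 12 of 12, Scd2 by a small margin with size factors. Scaling by size factors in place of total UMIs moved the median of all genes by 0.11, to 0.04. Sc5d then crossed the line with a ratio of 0.60, Idi1 and Cyp51 turned to 0.01 and 0.08, and Mvk came to -0.05. Over all genes, total-UMI scaling gave 616 higher and 1257 lower, and size factors 890 higher and 959 lower, while the listed genes went from 0 higher and 4 lower to 1 higher and 4 lower. Without the cells gated by 2 markers as GMP or neutrophil, a choice made after seeing the data, the ratio of Insig1 was -1.51, of Fdps -1.01, of Hmgcs1 -0.77 and of Scd2 -0.83. Those 4 genes were thus lower by the fold without these cells too.

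To compare like cells, each cell was thinned to 2000 UMIs and gated to a lineage where it held at least 3 of that lineage's 8 markers and more than of any other. The gates with 50 cells or more in both libraries were HSC (93 WT and 204 cKO cells), GMP (2762 and 200) and monocyte/dendritic cell, written monocyte/DC (190 and 230). A further 4329 WT and 7551 cKO cells stayed ungated. Levels within a gate use all UMIs of its cells. The leading genes of the 3 gates included 6, 5 and 3 of their own markers among the top 10. The gated cells are marker-positive cells and not whole cell types, and even within a gate the share of cells called in S or G2/M differed, at 19.4% and 41.2% for HSC, 65.9% and 82.0% for GMP and 46.8% and 58.3% for monocyte/DC.

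The sterol enzymes differed by unequal amounts over these gates. In HSC-gated cells their summed level was 358 and 351 CPM in WT and cKO, a ratio of -0.03 (-0.33 to 0.29), so no difference was detectable at this depth. In GMP-gated cells it was 375 and 302 CPM, a ratio of -0.31 (-0.41 to -0.21). In monocyte/DC-gated cells it was 478 and 302 CPM, a ratio of -0.66 (-0.85 to -0.47), and in ungated cells 393 and 287 CPM, a ratio of -0.45 (-0.49 to -0.41). Without Fdps the ratios were -0.03 (-0.37 to 0.33), -0.13 (-0.25 to -0.02), -0.29 (-0.52 to -0.06) and -0.34 (-0.38 to -0.30) in the same order, so the low value in monocyte/DC-gated cells rested largely on Fdps. With Fdps counted, the WT levels were more spread over the gates than the cKO levels, which lay between 287 and 351 CPM. The median ratio over the single enzymes was -0.04, -0.04, -0.55 and -0.35 in the same order, against -0.18, -0.04, -0.08 and -0.12 for all genes. In HSC- and GMP-gated cells the enzymes’ median was thus no lower than that of all genes with 3 markers, but with 2 markers it was -0.22 against -0.19 and -0.23 against -0.08.

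Within gates a gene was counted only where the interval also left out 0. In HSC-gated cells 1 of 28 listed genes at 5 CPM was lower by the fold and 0 were higher, against 7.66% and 3.35% of all genes. In GMP-gated cells 3 of 28 were lower and 2 higher, against 12.4% and 7.56%. In monocyte/DC-gated cells 4 of 27 were lower and 0 higher, against 10.5% and 6.48%. In ungated cells 6 of 27 were lower and 1 higher, against 18.0% and 6.96%. These shares stood near those of all genes in each gate, and the gates differ in depth, so their counts are not comparable with each other.

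Insig1 was the 1 listed gene lower by the fold in HSC-gated cells. It stood there at 89.4 and 32.6 CPM in WT and cKO, from 26 and 45 UMIs, a ratio of -1.47 (-2.18 to -0.70). In GMP-gated cells its ratio was -0.84 (-1.30 to -0.44), in monocyte/DC-gated cells -1.27 (-1.90 to -0.65) and in ungated cells -1.50 (-1.63 to -1.37). Every one of these intervals lay below 0. Fdps was not detectably different in HSC-gated cells, at 68.8 and 68.1 CPM from 20 and 94 UMIs, a ratio of -0.04 (-0.72 to 0.76). It was lower in GMP-gated cells at 105 and 55.5 CPM and lowest relative to WT in monocyte/DC-gated cells at 184 and 62.2 CPM, with ratios of -0.91 (-1.15 to -0.69) and -1.56 (-1.93 to -1.21). Scd2 had a ratio of -0.86 (-1.36 to -0.42) in GMP-gated and -1.37 (-2.12 to -0.63) in monocyte/DC-gated cells.

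With 2 markers required in place of 3, lymphoid-primed, megakaryocyte and erythroid gates also held 50 cells or more in both libraries, giving 7 groups with the ungated cells. Insig1 was lower in 7 of 7 groups with every interval below 0, and its ratio ran from -1.58 to -1.10. Fdps was lower in 7 of 7 with every interval below 0, from -1.52 in monocyte/DC-gated to -0.50 in lymphoid-primed-gated cells, where the upper bound lay just below 0, and its HSC-gated ratio was -0.54 (-0.96 to -0.06). These are the only 2 of the 31 genes of which that held. Srebf2, Scd2, Ebp, Nsdhl, Cyp51, Stard4 and Hsd17b7 also had ratios below 0 in 7 of 7 groups, with 1 to 5 intervals that left out 0. In the other direction, Sc5d and Fasn were above 0 in 6 of 7 groups, with 2 and 3 such intervals. Fasn had its largest ratio in lymphoid-primed-gated cells, 1.40 (0.44 to 2.51), from 13 and 28 UMIs. Tmem97 was above 0 in 6 of 7 groups although it was below 0 over all cells.

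**Figure D3:**
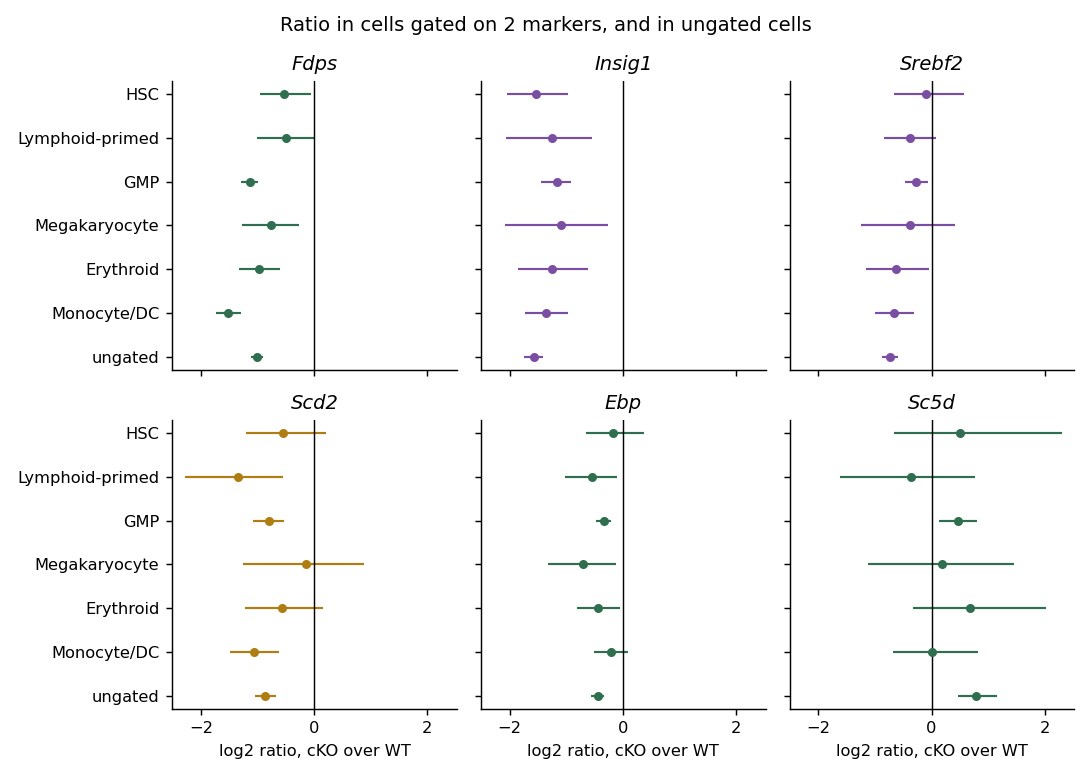
Log2 ratio of cKO over WT for 6 genes (one panel each, coloured by list) in cells gated on 2 markers and in ungated cells, with 95% counting intervals as bars. Every interval of Fdps and Insig1 lies below 0, and Sc5d lies to the right of 0 in 6 of 7 groups.

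With these wider gates the summed sterol level was lower in cKO in 7 of 7 groups. The ratio was -0.26 (-0.45 to -0.06) in HSC-gated, -0.29 (-0.50 to -0.09) in lymphoid-primed-gated and -0.43 (-0.49 to -0.36) in GMP-gated cells. It was -0.50 (-0.73 to -0.28) in megakaryocyte-gated, -0.34 (-0.50 to -0.18) in erythroid-gated and -0.66 (-0.77 to -0.54) in monocyte/DC-gated cells. The HSC result thus turned on the gate, from a ratio near 0 with 3 markers to an interval below 0 with 2. Without Fdps the HSC-gated interval covered 0 again, at -0.20 (-0.41 to 0.02). In the WT library alone, the summed level was highest in monocyte/DC-gated cells, at 477 CPM, followed by megakaryocyte-gated cells at 442, and their intervals overlapped. It was lowest in neutrophil-gated cells, at 301 CPM from 192 cells, with an interval that overlapped that of lymphoid-primed-gated cells, and no cKO cell passed that gate.

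**Figure D4:**
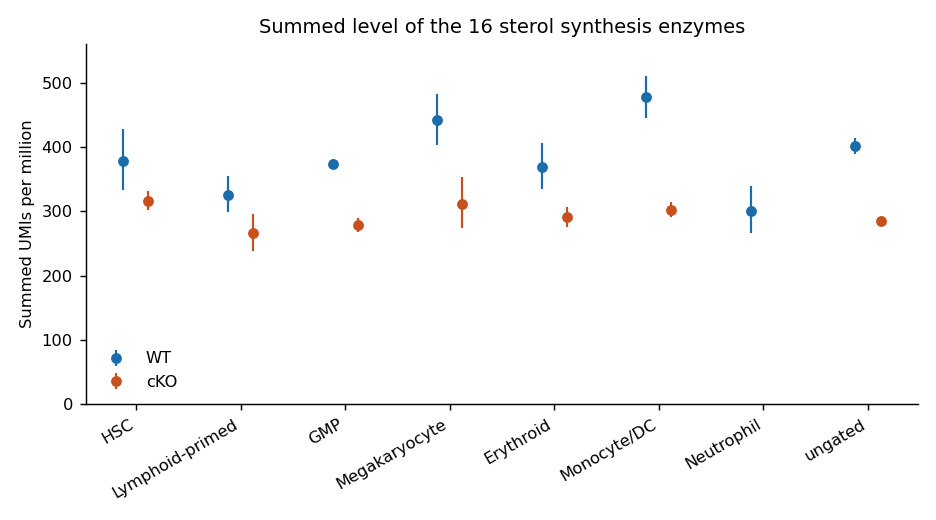
Summed level of the 16 sterol enzymes, in CPM, in cells gated on 2 markers and in ungated cells of the WT (blue) and cKO (orange) libraries, with 95% Poisson intervals as bars. The WT level is above the cKO level in all 7 groups present in both, and the neutrophil gate holds WT cells only.

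The cell cycle divided the genes. Cells were split into those called in S, those called in G2/M and those with neither call. Srebf2 differed between the libraries in cells with neither call, at 66.2 and 36.3 CPM in WT and cKO, a ratio of -0.87 (-1.01 to -0.72). In S-phase cells it stood at 31.5 and 29.7 CPM, a ratio of -0.09 (-0.27 to 0.09), and in G2/M cells at 27.4 and 27.4 CPM, a ratio of -0.003 (-0.16 to 0.16). The interval for cells with neither call lay below those for S and G2/M cells without overlap, and the latter 2 covered 0. Cells with neither call were shallower in WT, with a median of 3099 UMIs against 7701.5 in cKO, though calls were made at equal depth.

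The same split was seen in GMP-gated cells and, in part, in ungated cells, but not in the other gates. In GMP-gated cells by 2 markers the Srebf2 ratio was -0.97 (-1.44 to -0.55) with neither call, -0.18 (-0.54 to 0.17) in S and 0.29 (-0.04 to 0.61) in G2/M. In ungated cells it was -1.03 (-1.24 to -0.82), -0.18 (-0.51 to 0.19) and -0.32 (-0.59 to -0.02). In monocyte/DC-gated cells the ratios were -0.78 (-1.32 to -0.21), -0.37 (-0.99 to 0.34) and -0.73 (-1.35 to -0.04), with intervals that overlapped. In erythroid-gated cells they were -0.82 (-1.70 to 0.14), -0.56 (-1.69 to 0.94) and -0.40 (-1.26 to 0.60), and every interval covered 0. In HSC-gated cells with neither call, where 18 WT UMIs were counted, the Srebf2 ratio was -0.20 (-0.92 to 0.66).

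Insig1 was lower in cKO in each cycle class. It stood at 53.1 and 18.8 CPM with neither call, 34.6 and 15.4 CPM in S and 28.1 and 14.1 CPM in G2/M, with ratios of -1.50 (-1.68 to -1.32), -1.17 (-1.37 to -0.98) and -0.998 (-1.18 to -0.81). The intervals for cells with neither call and for G2/M cells did not overlap. Within gates by 2 markers the S-phase interval of Insig1 covered 0 in monocyte/DC-gated cells, at -0.25 (-1.09 to 0.78), and in erythroid-gated cells, at -0.80 (-1.95 to 0.72), where the G2/M interval, -1.07 (-2.09 to 0.02), covered 0 as well. These rest on 13, 7 and 14 WT UMIs. Fdps was lower in cKO in each cycle class too. It stood at 80.7 and 50.003 CPM with neither call, 131 and 54.3 CPM in S and 86.8 and 38.2 CPM in G2/M, with ratios of -0.69 (-0.82 to -0.57), -1.28 (-1.38 to -1.17) and -1.18 (-1.29 to -1.08). The S and G2/M intervals overlapped, and in monocyte/DC-gated and erythroid-gated cells by 2 markers the G2/M ratio was the lower one, at -1.87 (-2.25 to -1.49) and -1.54 (-2.08 to -0.99) against -1.48 (-1.84 to -1.09) and -0.84 (-1.46 to -0.14) in S. In WT, Fdps was thus highest in S-phase cells, and in cKO its S-phase level was close to that of cells with neither call.

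**Figure D5:**
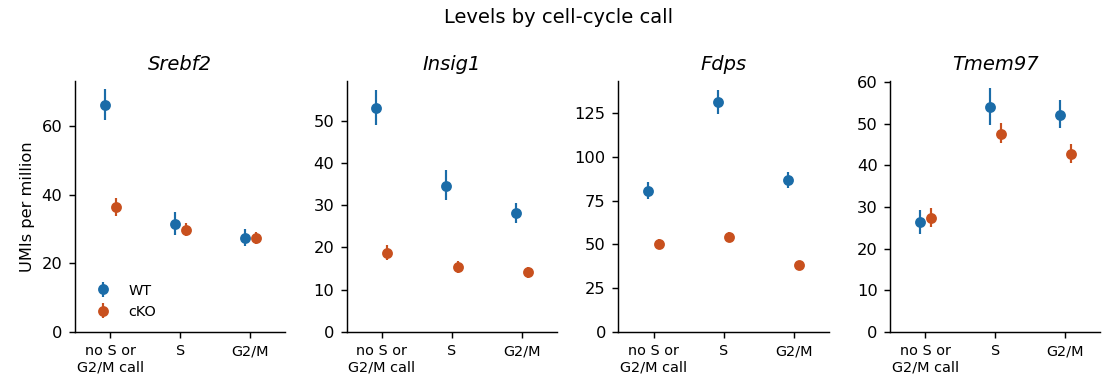
Level of Srebf2, Insig1, Fdps and Tmem97, in CPM, in cells with no S or G2/M call, S-phase cells and G2/M cells of the WT (blue) and cKO (orange) libraries, with 95% Poisson intervals as bars. The Srebf2 points coincide in G2/M (27.4 CPM in both), and the widest Fdps gap is in S (131 and 54.3 CPM).

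Tmem97 and Ebp were at higher levels in S and G2/M cells of WT than in cells with neither call. Tmem97 stood at 26.3 and 27.4 CPM in WT and cKO with neither call and at 54.0 and 47.6 CPM in S, with ratios of 0.06 (-0.14 to 0.26) and -0.18 (-0.32 to -0.04). Ebp stood at 56.6 CPM with neither call, 77.4 CPM in S and 82.2 CPM in G2/M in WT, and had a ratio of -0.21 (-0.34 to -0.07) with neither call, -0.51 (-0.63 to -0.39) in S and -0.63 (-0.73 to -0.53) in G2/M. Scd2 had -0.90 (-1.10 to -0.70), -0.46 (-0.68 to -0.24) and -0.63 (-0.81 to -0.45) in the same order. The summed sterol level had ratios of -0.33 (-0.38 to -0.27), -0.54 (-0.59 to -0.49) and -0.42 (-0.46 to -0.37). Without Fdps these were -0.24 (-0.30 to -0.18), -0.32 (-0.37 to -0.26) and -0.23 (-0.28 to -0.18). The median of all genes in each class was -0.11, -0.04 and -0.04. That is an unlike measure, since a sum leans on the most abundant genes and a median over genes does not.

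Per cell, sterol enzyme transcripts were sparse. At 2000 UMIs per cell, the 16 enzymes together gave a mean of 0.773 UMIs in WT and 0.593 in cKO. The variance over the mean was 1.34 in WT and 1.13 in cKO, and without Fdps it was 1.22 and 1.08. The WT cells thus varied more among themselves in sterol enzyme transcripts than the cKO cells, in a mixture of cell types that also differed.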

How the data were processed

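LSK cells were sorted from lineage-depleted bone marrow and captured with 10x Genomics 3′ reagents (v2 per the labels, another version in the study's methods). The authors aligned reads with Cell Ranger (version 6.0.0 in the submitters' processing notes) to mm10 (GRCm38) and deposited raw UMI counts per gene and cell; the filter that left 8869 WT and 9260 cKO barcodes was not given in the sources used here. The authors' own cluster and cell type names were not used here.

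From these counts, cells with at least 200 genes, at most 4000 (WT) or 4500 (cKO) genes, at most 10% (WT) or 5% (cKO) mitochondrial UMIs and at most 5% haemoglobin UMIs were taken, limits close to those of the study's methods, which 8763 WT and 9151 cKO barcodes met. Simulated doublets scored by nearest neighbours (scikit-learn 1.9.0) marked 616 WT and 671 cKO cells, which were left out. UMIs were summed per library and divided by the library's sum. Ratios used 0.5 added counts. Gates and cycle calls (scanpy 1.11.5, 96 cycle genes) were made on cells thinned to 2000 UMIs with a fixed seed, which left out 197 WT and 105 cKO cells. TMM factors came from edgeR 4.0.16 and no edgeR test was run. Simulated counts with known changes were used to check the ratio and its interval. Since the libraries hold 47991455 and 98323201 UMIs in all, the counting intervals are narrow and the spread between mice is unknown.

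The members, lists, gates and motifs were chosen with earlier results of these data known, and the 8-letter motif after the 9-letter one had matched 1 gene. All 31 members are named, and of the other lists those at 5 CPM past 1.5-fold, with further genes of the pathway named for their role; some genes of those lists are not reported here. Trbc1, a marker, had no row, and Cavin2 was matched as Sdpr. Gene positions are from GENCODE M21 and promoters from RefSeq, both GRCm38. Promoter windows of Fdps, Fdft1, Sqle, Stard4, Scd1, Scd2 and Fads1 were not used here.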

Additional observations from a re-analysis of the deposited data

How the results depend on the processing

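Of 209 summary values recomputed under other settings, 193 kept their direction and stayed within 1.5 times the count or within the counting interval, 16 moved and 0 reversed. The median ratio of the sterol enzymes, the regulators, the fatty acid genes and the uptake genes stayed below 0 under each setting run over all cells. The number of sterol enzymes higher by 1.5-fold went from 0 to 1, by Sc5d, with median-of-ratios or TMM factors, without mitochondrial and ribosomal protein genes in the total, with cells thinned to 2000 UMIs and in cells with no S or G2/M call. The number of regulators lower by the fold went from 1 to 2 with cells scaled before averaging, with thinned cells, in cells with no S or G2/M call and without GMP- and neutrophil-gated cells, and to 3 with the same mix of gated classes. Fatty acid genes lower by the fold went from 1 to 2 in cells with no S or G2/M call and to 0 when 2-fold was counted, which also left 1 sterol enzyme, Fdps. With no minimum level, 1 uptake gene, Cd36, was higher. The fatty acid median moved to -0.14 without GMP- and neutrophil-gated cells, a setting chosen after seeing the data, as was leaving out neutrophil-gated cells alone. The sterol median in ungated cells moved to -0.16 with median-of-ratios factors. The ratio of Tmem97 reversed to 0.049 with cells scaled before averaging, 0.025 with thinned cells, 0.058 in cells with no S or G2/M call, 0.24 with the same mix of gated classes and 0.16 without GMP- and neutrophil-gated cells, and the cause was not tested. No paired analysis was possible because each genotype is 1 library, so no library could be left out. Levels of a few CPM in gates of under 100 cells give wide intervals, which limits the HSC gate most.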

Other observations

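Some genes of lipid handling lay below 5 CPM in both libraries and so outside the counts, yet differed by more than counting error. Me1, the malic enzyme that supplies NADPH for fatty acid synthesis, gave 3 UMIs in WT and 67 in cKO, with a log2 ratio of 3.21 (1.82 to 5.74). Abca1, which exports cholesterol to apolipoproteins, stood at 2.62 and 1.202 CPM in WT and cKO, a ratio of -1.12 (-1.52 to -0.72). Lrp1, a receptor for lipoproteins that carry APOE, gave 45 and 28 UMIs, a ratio of -1.73 (-2.48 to -1.03). Cd36, a fatty acid transporter, gave 2 and 20 UMIs, a ratio of 1.98 (0.22 to 5.41).

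Of the 13 fatty acid genes outside the list at 5 CPM, 4 (30.8%) were higher with an interval that left out 0 and 6 (46.2%) lower, shares close to the 33.2% and 45.7% of all genes. The 4 higher ones all belong to fatty acid elongation, a grouping made after their values were seen. They were the elongase Elovl1 at 0.22 (0.15 to 0.29), the reductase Hsd17b12 at 0.37 (0.31 to 0.43), and the dehydratases Hacd2 at 0.54 (0.46 to 0.62) and Hacd3 at 0.19 (0.03 to 0.34). Tecr, the reductase of the last step of the cycle and the 1 other elongation gene of these 13, had -0.18 (-0.21 to -0.15), on the same side as Elovl5 and Elovl6. Hacd2 stood at 41.5 and 60.3 CPM in WT and cKO. Apoe, the largest difference by UMIs among the uptake genes, was lower in 7 of 7 groups of cells gated on 2 markers or ungated, with ratios from -2.66 (-2.84 to -2.48) in GMP-gated to -1.43 (-1.62 to -1.26) in megakaryocyte-gated cells.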
